A study of Mus musculus with 8 samples.

Results

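The actin and contractile genes of bone-derived mouse mesenchymal stem cells (MSCs, stromal cells that can form bone, fat and cartilage) were followed between low and high oxygen. The set holds 10 genes of the 53465 in the count table, chosen by symbol with their pseudogenes left out: Acta2, Actb, Actg1, Myl9, Tagln, Cnn1, Cnn2, Tpm1, Tpm2 and Actn1. All 10 passed the filter on low counts, among 14369 genes tested. RNA-seq was performed on 4 hypoxia samples (2% O2) and 4 normoxia samples (21% O2), numbered 1 to 4 in each group. Per the labels, the MSCs came from mice aged 3 to 5 months, grew in control α-MEM medium and were purified by flow cytometry on day 12. The study used C57BL6/N mice and sorted cells negative for CD45 and TER-119 and positive for CD140a and Sca-1. It describes dividing the sorted cells between the oxygen conditions, so both groups share the same isolation, and normoxia is a shift away from the low oxygen in which the cells were first grown. The study measured the cells after days of culture at each oxygen level and describes its focus as long-term effects.

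Actin monomers polymerise into filaments, and bundles of filaments crossed by myosin II form the stress fibres by which stromal cells pull on their surroundings. A fibroblast that raises smooth muscle α-actin and its partners is called a myofibroblast, the contractile cell of wounds and scars. Most of these genes are known targets of serum response factor (SRF), which binds a DNA element called the CArG box. Its cofactors of the MRTF family are held in the cytoplasm by free actin monomers.

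At 21% O2 the mRNAs of all 3 abundant actins were lower, as were the myosin light chain Myl9, both calponins and Tagln, whereas the tropomyosin gene Tpm1 was higher. Among the 7 genes that fell, Actb fell by 14.4% and Acta2 fell by 28.8%, with the others between them, and Tpm1 rose by 27.4%. In total 8 of the 10 genes passed the test (limma-trend with Benjamini-Hochberg adjustment over all genes, threshold 0.05), 1 higher and 7 lower in normoxia, while 34.6% of all tested genes passed it, 18% higher and 16.5% lower. The median log2 change of the 10 genes was -0.29, against 0.0049 over all tested genes. For 7 of the 10 genes the hypoxia and normoxia values were fully separate, 6 of them lower in normoxia, and the same held for 32.6% of all tested genes (15.5% lower). When the replicate number entered the model as a block, 9 of the 10 passed, 2 higher and 7 lower, beside 46% of all tested genes (23.3% higher and 22.7% lower). The same block fitted after trends with transcript GC content and length had been removed from each sample (the GC-corrected block) also called 9, 3 higher and 6 lower, beside 43.2% of all genes. Between samples of the same number, 9 of the 10 genes moved the same way in all 4 pairs, 7 downwards and 2 upwards (Tpm1 and Actn1). The share of all tested genes that did so was not computed, so this count does not set the 10 genes apart. The changes are modest, and every one lies inside the range from the 5th to the 95th percentile of all tested genes, -0.63 to 0.62.

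**Figure D1:**
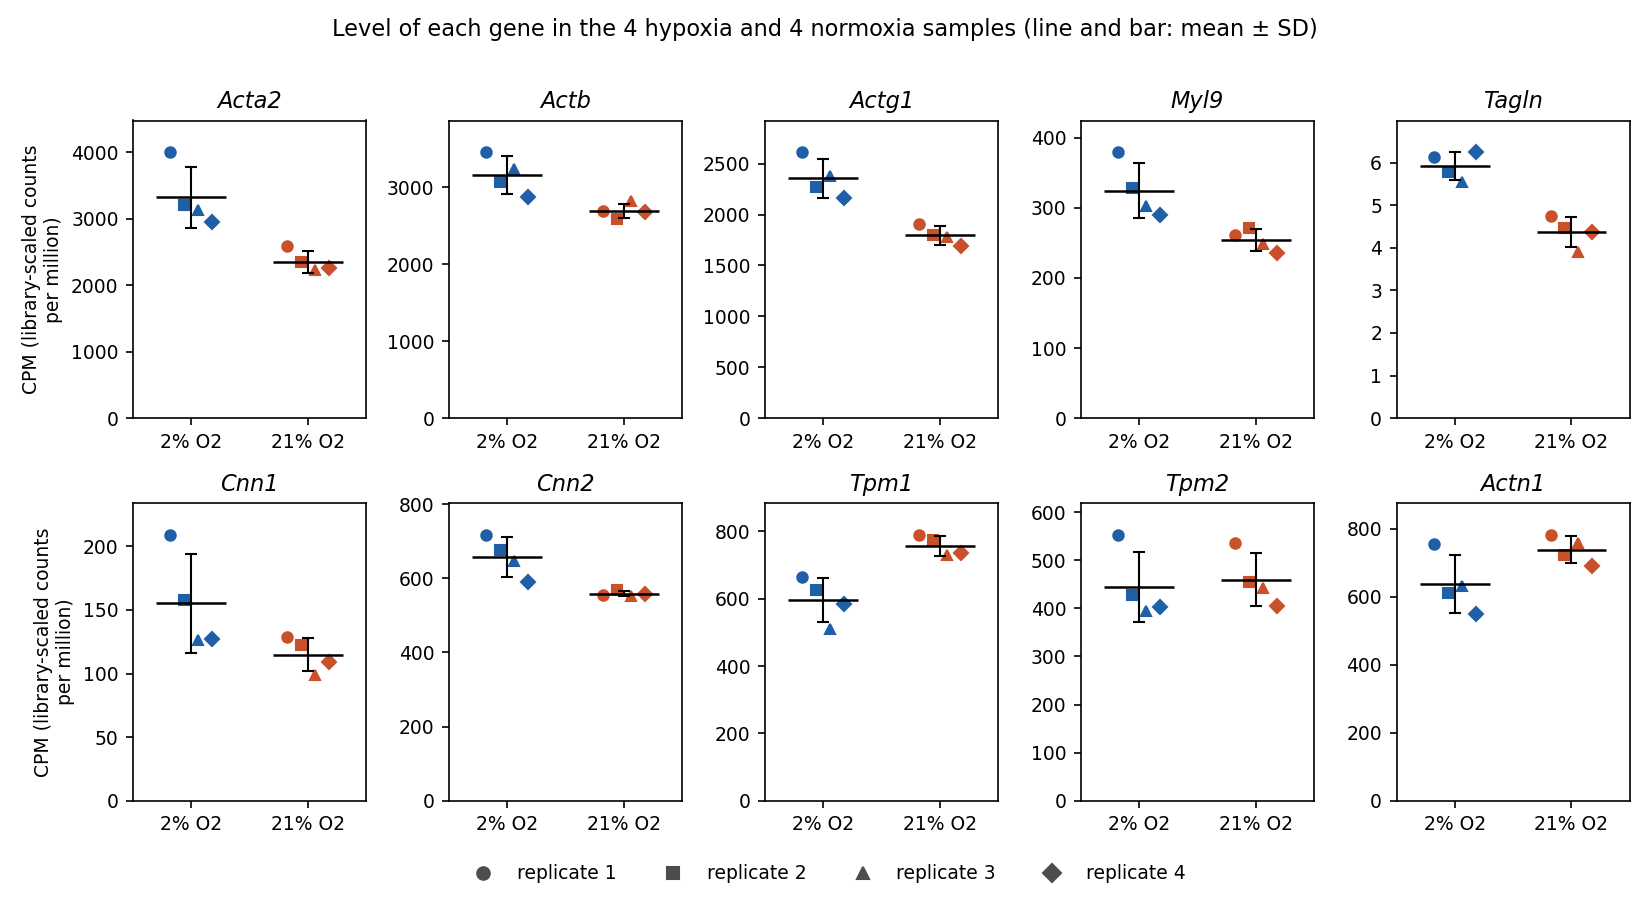
Level of each of the 10 genes in CPM (library-scaled counts, axis from 0) in the 4 samples at 2% O2 and the 4 at 21% O2, with the mean and SD in black and a symbol for each replicate number. The 4 normoxia values of Acta2 (2228 to 2594 CPM) lie below all 4 hypoxia values (2952 to 4001 CPM), and those of Tpm1 lie above.

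Total counts ranged from 12898291 to 13433824 in 7 samples, and hypoxia 1 had 25132141. Hypoxia 1 also had the highest level of its group for 9 of the 10 genes, and normoxia 1 for 7 of the 10, so each result that turns on these samples is given without them. The positive sorting markers were well covered, with 4636 to 11995 counts per sample for Ly6a (Sca-1) and 1928 to 4011 for Pdgfra (CD140a). Ptprc (CD45), for which the sorted cells were negative, had 140 to 263 counts per sample. Among markers of other cells, the 6 blood cell genes together lay at 402 to 773 CPM in hypoxia and 514 to 933 CPM in normoxia, with Hbb-bs at 0 in every sample. Lyz2 of myeloid cells held the largest part of this sum, at 261 to 436 CPM in hypoxia and 400 to 691 CPM in normoxia. Of the 5 tested, Lyz2 was higher in normoxia (log2 change 0.56, SE 0.17, adjusted p = 0.022) and none was lower. With the replicate block 1 was higher and 3 were lower, namely Cd68, Itgam and Csf1r (log2 changes -0.28, -0.46 and -0.59). The 7 skeletal muscle genes together reached at most 1.46 CPM, and 4 of them were at 0 in every sample. The 6 mesenchymal stem cell genes together lay at 1460 to 1735 CPM in hypoxia and 1335 to 1571 CPM in normoxia, with 1 of 6 higher and 1 lower, and 2 higher and 4 lower with the block. Of all tested genes 18% were higher and 16.5% lower, and 23.3% and 22.7% with the block. Without the block the stem cell counts thus do not set these genes apart. The part of these marker levels in the results was not tested, and in bulk RNA fewer contractile cells and less RNA per cell cannot be told apart.

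Levels of different genes were compared per kilobase of annotated exon, and on this scale Acta2 was the most abundant of the 10 genes. The exon bases of all transcripts of a gene were counted, 2196 for Acta2, 2679 for Actb and 6485 for Tpm1. Their longest transcripts have 2035, 1920 and 2890 bases, so the order of the genes depends on the length used. The mean level of Acta2 was 1514 CPM per kilobase in hypoxia, followed by Actb at 1179 and Actg1 at 887. The levels of the other genes were lower, namely Myl9 at 279, Cnn2 at 267, Tpm2 at 153, Actn1 at 115, Tpm1 at 92.0, Cnn1 at 56.7 and Tagln at 2.98. Myl9 and Cnn2 overlapped in this order, with ranges over all 8 samples of 203 to 326 and 224 to 291, as did Tpm2 with Actn1 and Actn1 with Tpm1. Actb lay above Actg1 in every sample of each group, with Actg1 counted without its pseudogene copies. That order depends on this way of counting. In hypoxia 1, Actb had 82618 counts, Actg1 had 62462 and the copy Gm12715 had 24796. In hypoxia the level of Acta2 (1344 to 1822) lay above that of Actb (1071 to 1289) in every sample, whereas in normoxia their ranges overlapped (1015 to 1181 and 968 to 1051). This contrast rests on the length used. Not divided by length, Actb (3240 CPM) lay above Acta2 (3138 CPM) in hypoxia 3. Together the 10 genes held 1.13% ± 0.098 of all counts in hypoxia and 1.00% ± 0.035 in normoxia (n = 4 each, SD). Hypoxia 1 held 1.27%, and without it the difference between the means was -0.078 in place of -0.126 percentage points. The groups overlapped, with 1.049% in normoxia 1 and 1.045% in hypoxia 4. Tagln (transgelin, another usual marker of myofibroblasts) rested on only 54 to 147 counts per sample.

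Since most of these genes are known SRF targets, the 250 bases before the transcription start were read from RefSeq (GRCm38.p6), which gave a promoter for 8 of the 10 genes. The other 2 are Tagln and Actb. The CArG box was searched as CC, then 6 bases that are each A or T, then GG, with no base off this pattern. It was found in the promoters of Actg1, Cnn2 and Myl9, and in 1.47% of the 32851 mouse promoters of the same length. These 3 are shown with the box in capitals, followed by Acta2, the gene with the largest fall, and Tpm1, the only called rise, which hold no box of this strict form.
Actg1, chr11:120348496-120348745, minus strand: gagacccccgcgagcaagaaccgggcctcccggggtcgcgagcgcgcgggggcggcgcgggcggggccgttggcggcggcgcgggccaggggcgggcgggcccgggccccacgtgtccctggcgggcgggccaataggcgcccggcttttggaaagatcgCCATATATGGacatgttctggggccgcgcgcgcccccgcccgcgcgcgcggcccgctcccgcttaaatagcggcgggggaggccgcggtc
Cnn2, chr10:79988350-79988599, plus strand: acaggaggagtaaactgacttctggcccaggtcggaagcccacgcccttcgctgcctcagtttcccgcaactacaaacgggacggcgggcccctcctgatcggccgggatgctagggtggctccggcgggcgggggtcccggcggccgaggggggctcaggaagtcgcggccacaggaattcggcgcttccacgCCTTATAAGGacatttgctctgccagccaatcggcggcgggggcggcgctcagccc
Myl9, chr2:156775214-156775463, plus strand: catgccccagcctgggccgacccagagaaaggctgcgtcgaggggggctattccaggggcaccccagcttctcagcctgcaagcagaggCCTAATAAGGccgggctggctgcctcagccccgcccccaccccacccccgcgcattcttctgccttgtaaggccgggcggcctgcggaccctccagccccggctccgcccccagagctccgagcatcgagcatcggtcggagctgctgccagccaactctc
Acta2, chr19:34255374-34255623, minus strand: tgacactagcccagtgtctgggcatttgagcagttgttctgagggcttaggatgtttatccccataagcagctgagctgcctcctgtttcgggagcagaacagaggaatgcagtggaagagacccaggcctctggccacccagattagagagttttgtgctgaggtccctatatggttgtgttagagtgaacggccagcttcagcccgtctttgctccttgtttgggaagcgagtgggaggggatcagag
Tpm1, chr9:67049214-67049463, minus strand: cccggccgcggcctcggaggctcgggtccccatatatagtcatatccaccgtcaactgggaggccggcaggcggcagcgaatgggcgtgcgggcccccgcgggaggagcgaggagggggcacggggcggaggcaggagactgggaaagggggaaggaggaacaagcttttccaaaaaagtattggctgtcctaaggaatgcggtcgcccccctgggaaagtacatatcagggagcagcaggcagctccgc
The box lies 90 to 81 bases before the start in Actg1, 56 to 47 in Cnn2 and 161 to 152 in Myl9, and since the pattern is the same on both strands, each match counts on both. With 1 base off the pattern allowed, a search added after the sequences were seen, Acta2 held 2 such boxes (84 to 75 and 34 to 25 bases before the start) and Tpm1 held 2 (221 to 212 and 80 to 71). A box of this looser form was in 5 of the 8 promoters and in 18.6% of all promoters. Searched on both strands, ACGTG (a core of the hypoxia response element) occurred in Actg1 and in 16.6% of all promoters. There the matches on the opposite strands overlap. GCGTG, the other core, occurred in Cnn1, Cnn2, Tpm1 and Actn1 and in 28.2% of all promoters, and in Cnn2 a match shares its last base with the CArG box. CATTCC (the MCAT element) occurred in Acta2 and Tpm1 and in 12.6% of all promoters, and TATAAA in none of the 8 and in 12.4% of all. A match of letters is a description and no measurement of binding.

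Acta2 encodes smooth muscle α-actin, the defining actin of myofibroblasts (mm10 chr19:34241090-34255590, minus strand). Its level was 4001, 3207, 3138 and 2952 CPM in hypoxia 1 to 4, and 2594, 2350, 2228 and 2254 CPM in normoxia 1 to 4. Hypoxia 1 stood highest, and every normoxia sample lay below every hypoxia sample. Acta2 fell by 0.49 on the log2 scale (SE 0.10, adjusted p = 0.0029), from 3325 ± 464 to 2357 ± 167 CPM (SD, n = 4 each), and without hypoxia 1 it fell by 0.40. No stretch of 150 bases, the read length, of its longest transcript occurs unchanged in an annotated transcript of another gene.

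Actb encodes cytoplasmic β-actin, present in nearly every cell (chr5:142903115-142906754, minus strand). It had 3453, 3068, 3240 and 2869 CPM in hypoxia and 2695, 2594, 2815 and 2684 CPM in normoxia. The groups did not overlap, but hypoxia 4 and normoxia 3 lay close together. Actb fell by 0.22 (SE 0.080, adjusted p = 0.046), just inside the threshold. The call was lost when hypoxia 1 or 3, or any of the normoxia samples, was left out (adjusted p from 0.065 to 0.11), with log2 changes from -0.25 to -0.18. Scaling by total counts alone left a log2 change of -0.14 (adjusted p = 0.18).

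Actg1 encodes cytoplasmic γ-actin, the partner of β-actin in non-muscle cells (chr11:120345690-120348542, minus strand). It had 2611, 2270, 2381 and 2166 CPM in hypoxia and 1911, 1795, 1783 and 1691 CPM in normoxia, again with no overlap. Actg1 fell by 0.39 (SE 0.078, adjusted p = 0.0025). Of the 150-base stretches of its longest transcript, 43.5% occur unchanged in annotated transcripts of other genes, mainly in the processed pseudogene Gm12715 (39.3%). Gm12715 held 8690 to 24796 counts per sample, between 38.1% and 40.3% of those of Actg1, and fell by 0.42 (SE 0.072, adjusted p = 0.0010). Reads of the gene and of its copies cannot be fully told apart, and counted together they fell by 0.40 (SE 0.082, adjusted p = 0.0029).

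The makeup of the actin pool was compared per length over the 3 actins. Acta2 made up 44.5%, 42.2%, 40.4% and 41.6% in hypoxia 1 to 4, and 40.6%, 39.4%, 37.1% and 38.5% in normoxia 1 to 4. The share of Actb was 33.0% ± 1.1 in hypoxia and 36.6% ± 1.7 in normoxia (n = 4 each, SD), with no overlap between the groups. The share of Actg1 was 24.8% ± 0.62 and 24.5% ± 0.45, a difference within the spread between samples. Actg1 was counted here without its copies. With them its share would be larger and the shares of Acta2 and Actb smaller. Without division by length the mean shares of Acta2 were 37.5% in hypoxia and 34.4% in normoxia, and those of Actb 35.8% and 39.4%. The makeup is given as a description, with no test.

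**Figure D2:**
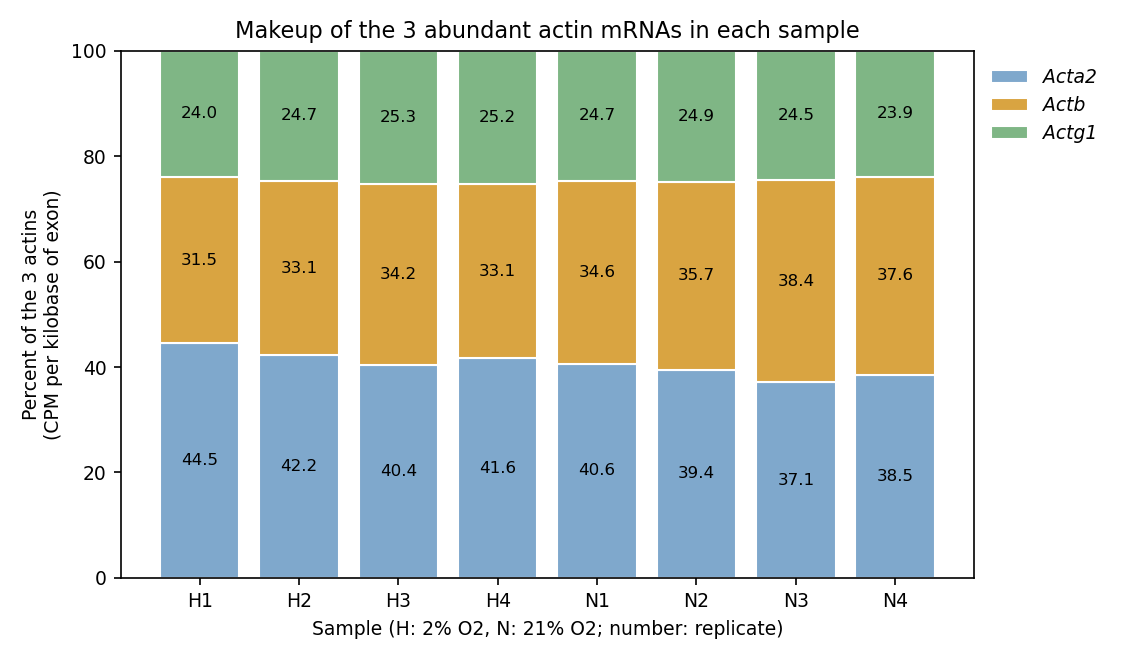
Percent of the summed length-scaled level of the 3 abundant actins held by Acta2, Actb and Actg1, stacked to 100 for each of the samples H1 to H4 (2% O2) and N1 to N4 (21% O2). The Actb band is between 31.5% and 34.2% in hypoxia and between 34.6% and 38.4% in normoxia, and the Actg1 band keeps nearly the same width throughout. Actg1 is counted without its copies.

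The remaining actin genes belong to muscle, and those that were tested also fell. Acta1, the skeletal muscle α-actin, lay at 23.9 to 38.2 CPM in hypoxia and 8.07 to 13.6 CPM in normoxia, and fell by 1.33 on the log2 scale (SE 0.17, adjusted p = 0.00022). Actg2, the γ-actin of enteric smooth muscle, lay at 106 to 160 CPM and 66.6 to 103 CPM, and fell by 0.64 (SE 0.15, adjusted p = 0.0067). With the GC-corrected block the log2 changes were -1.12 for Acta1, -0.52 for Actg2 and -0.48 for Acta2. Differences from Acta2 were not tested. Actc1, the cardiac α-actin, had at most 1 count and was not tested. Of the skeletal muscle markers, Myl1, Ckm, Myh4 and Myog had 0 counts in every sample, which allows up to 0.119 to 0.233 CPM. Over all 6 actins per length, Acta1 held at most 0.590% and Actg2 at most 2.73% in any sample.

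Myl9 encodes the regulatory light chain of smooth muscle and non-muscle myosin II, whose phosphorylation switches the motor on (chr2:156775420-156781658, plus strand). It had 379, 328, 302 and 290 CPM in hypoxia and 261, 271, 248 and 236 CPM in normoxia. All normoxia samples were lower than all hypoxia samples. Myl9 fell by 0.35 (SE 0.082, adjusted p = 0.0063). With the GC-corrected block it fell by 0.12 (SE 0.048, adjusted p = 0.035). GC content was 56.6% for its longest transcript, the highest of the 10 genes.

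Of 8 tested genes of non-muscle myosin II and its light chain control, 4 fell and 1 rose, with a median log2 change of -0.26. Among all tested genes 16.5% fell and 18% rose. Mylk, the kinase that phosphorylates Myl9, fell by 1.11 (SE 0.12, adjusted p = 0.00010), from 96.3 to 145 CPM in hypoxia down to 46.6 to 60.1 CPM in normoxia. Myh10, a heavy chain of non-muscle myosin II, fell by 0.59 (SE 0.13, adjusted p = 0.0041), and Myl6, the essential light chain, by 0.37 (SE 0.067, adjusted p = 0.00155). Ppp1r12a, the targeting subunit of the myosin phosphatase that opposes Mylk, rose by 0.23 (SE 0.081, adjusted p = 0.043). With the GC-corrected block that rise was gone (-0.00, adjusted p = 0.98). With the block alone, 6 of the 8 fell and 1 rose, beside 22.7% and 23.3% of all tested genes.

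Tagln encodes transgelin, a calponin-related protein that binds actin filaments (chr9:45929619-45936058, minus strand). Its level was 6.14, 5.78, 5.54 and 6.24 CPM in hypoxia and 4.75, 4.47, 3.90 and 4.37 CPM in normoxia. The groups did not overlap, although each value rests on few counts. Tagln fell by 0.42 (SE 0.13, adjusted p = 0.022), a call that was lost without hypoxia 4 (adjusted p = 0.058) or normoxia 3 (adjusted p = 0.062), and with the GC-corrected block (adjusted p = 0.060). Genes on the opposite strand cover 67.9% of its exon bases, and Gm48529 alone covers 62.4%. Gm48529 had 4 to 10 counts per sample, and Pcsk7, which covers 5.43%, had 254 to 618. Whether the counting used strand or kept reads that fall in 2 genes is not stated, so reads of Tagln and of its opposite-strand neighbours cannot be told apart, and the low level of Tagln is uncertain.

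Cnn1 encodes basic calponin, which restrains actomyosin in smooth muscle (chr9:22099216-22109630, plus strand). It had 209, 158, 126 and 127 CPM in hypoxia and 129, 123, 99.0 and 109 CPM in normoxia. Hypoxia 1 stood far above the other hypoxia samples, and the groups overlapped. Cnn1 fell by 0.41 (SE 0.14, adjusted p = 0.042), and was lower in normoxia in all 4 pairs. The call was lost without hypoxia 1 (log2 change -0.25, adjusted p = 0.062), hypoxia 2 (adjusted p = 0.086), normoxia 2 (adjusted p = 0.051), normoxia 3 (adjusted p = 0.11) or normoxia 4 (adjusted p = 0.084). With the replicate block the SE was 0.062 in place of 0.14 and the adjusted p 9.3e-06.

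Cnn2, the calponin of non-muscle cells (chr10:79988584-79996062, plus strand), had 717, 675, 645 and 589 CPM in hypoxia. In normoxia it had 555, 568, 552 and 558 CPM, so that its 4 values were nearly equal and all below hypoxia. Cnn2 fell by 0.23 (SE 0.065, adjusted p = 0.017). Under total-count scaling the log2 change was -0.14 and did not pass (adjusted p = 0.080), and with the GC-corrected block it was also -0.14 (adjusted p = 0.014).

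Tpm1 encodes α-tropomyosin, which lies along actin filaments and governs the access of myosin (chr9:67022590-67049406, minus strand). Its level was 665, 627, 512 and 584 CPM in hypoxia and 790, 774, 731 and 735 CPM in normoxia. Every normoxia sample was higher than every hypoxia sample. Tpm1 rose by 0.35 (SE 0.078, adjusted p = 0.0049), and by 0.28 to 0.44 over all alternatives, each past the threshold.

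Tpm2 encodes β-tropomyosin (chr4:43514711-43523765, minus strand). It had 553, 427, 395 and 402 CPM in hypoxia and 535, 454, 442 and 406 CPM in normoxia, with both groups spanning nearly the same range. Its log2 change was 0.055 (SE 0.11, 95% interval -0.18 to 0.29, adjusted p = 0.74), and -0.034 without normoxia 1. Only with the GC-corrected block did Tpm2 pass the test (0.19, SE 0.043, adjusted p = 0.00046).

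Actn1 encodes α-actinin 1, which cross-links actin filaments in stress fibres and anchors them at adhesions (chr12:80167547-80260371, minus strand). Its level was 757, 611, 632 and 550 CPM in hypoxia and 782, 723, 759 and 692 CPM in normoxia. Hypoxia 1 was the only hypoxia sample within the normoxia range. The log2 change of 0.22 (SE 0.088, adjusted p = 0.071) did not pass the test. With the replicate block, which compares samples of the same number, Actn1 rose by 0.22 (SE 0.052, adjusted p = 0.0011), and without hypoxia 1 it rose by 0.31 (adjusted p = 0.0043). Opposite-strand genes with at most 5 counts in a sample cover 8.15% of its exon bases.

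**Figure D3:**
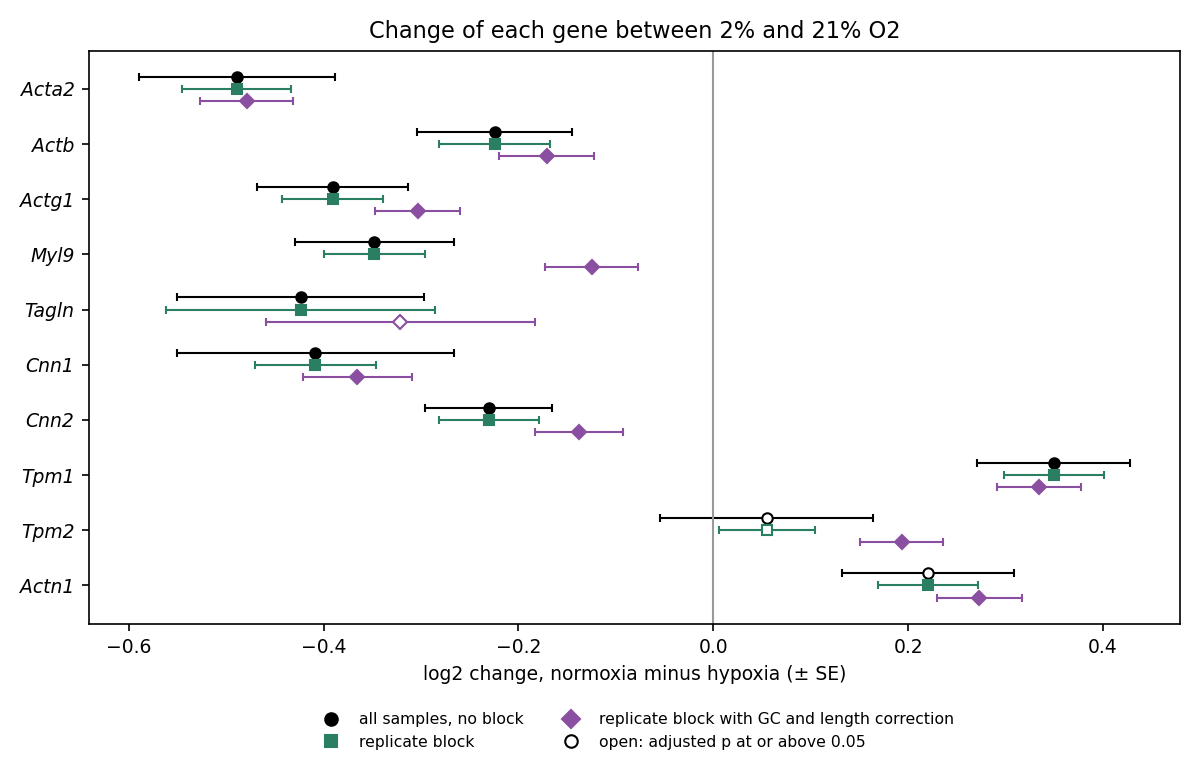
Log2 change (normoxia minus hypoxia) of each gene with its SE under 3 fits, namely all samples without a block (black), with the replicate block (green), and with the GC-corrected block (purple). Filled symbols passed the threshold of 0.05 after adjustment, and the 7 genes from Acta2 to Cnn2 lie left of 0 in all 3 fits, whereas Tpm1, Tpm2 and Actn1 lie right of 0.

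A list of 6 relatives of the filament-binding genes (tropomyosins, calponin, transgelin, actinin and caldesmon) was set beside the 10. Of the 6, 4 rose (18% of all tested genes rose) and none fell, with a median log2 change of 0.29. Cald1, the actin- and tropomyosin-binding protein caldesmon, rose by 0.59 (SE 0.088, adjusted p = 0.000475), from 920 to 1162 CPM in hypoxia up to 1426 to 1687 CPM in normoxia. Tpm4, a tropomyosin of non-muscle cells, rose by 0.39 (SE 0.096, adjusted p = 0.0079), and Cnn3, the acidic calponin, by 0.33 (SE 0.059, adjusted p = 0.0013). The same 4 genes rose with the GC-corrected block, in which 43.2% of all genes were called. With the block alone 4 rose and 1 fell, beside 23.3% and 22.7% of all tested genes. Members of a family did not share a direction, as Cnn1 and Cnn2 fell and Cnn3 rose.

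Relative to Actb, which served the study as an internal control in qRT-PCR, the other 9 genes were measured as log2 ratios of counts in each sample. The ratio of Tpm1 to Actb was higher in normoxia by 0.57 (SE 0.099), and that of Actn1 by 0.45 (SE 0.056), with no overlap between the groups. The difference was -0.26 (SE 0.082) for Acta2 and -0.17 (SE 0.045) for Actg1, again with no overlap. For these 4 ratios the two-sided exact permutation test gave p = 0.0286, the smallest that 4 against 4 samples allow, and 0.064 after adjustment over the 9 ratios, so none passed. For Cnn2 the ratio differed by -0.0060 (SE 0.044, exact permutation p = 0.83), and its sign turned without hypoxia 2 (0.021) or normoxia 3 (0.020). The other ratios, of Tagln, Cnn1, Myl9 and Tpm2, overlapped between the groups. Within the 4 pairs of the same number, however, the ratios of Tagln, Cnn1 and Myl9 were lower in normoxia in all 4 and that of Tpm2 was higher in all 4 (two-sided exact sign-flip p = 0.125 for each, the smallest that 4 pairs allow).

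**Figure D4:**
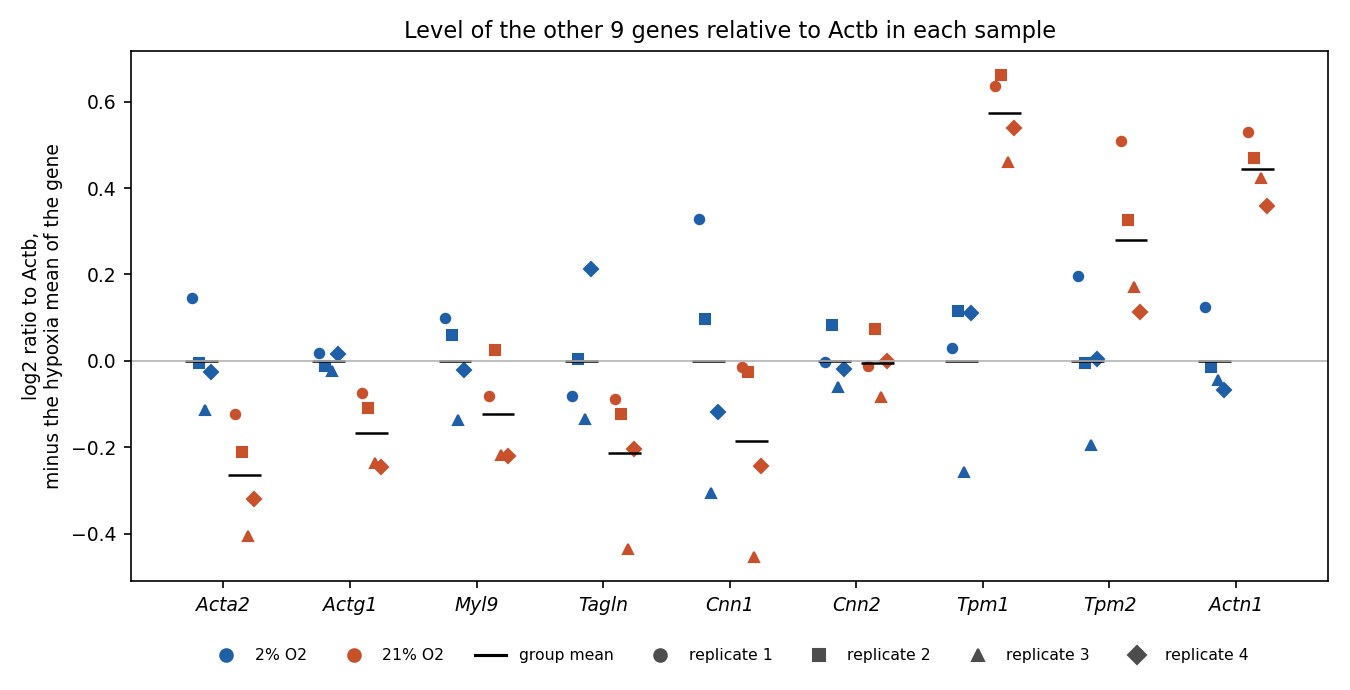
Log2 ratio of each of the other 9 genes to Actb in every sample, shown minus the mean of its hypoxia samples, with black lines at the group means. Normoxia points of Acta2 and Actg1 lie below all of their hypoxia points, those of Tpm1 and Actn1 lie above, and those of Cnn2 mix.

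Actb was set beside 11 genes in common use as references in qRT-PCR, of which 3 fell, 1 rose and 7 did not pass. Of all tested genes 34.6% passed, so these counts do not set the reference genes apart. Gapdh, a glycolytic enzyme, fell by 0.63 (SE 0.097, adjusted p = 0.00055), Rplp0, a ribosomal protein, by 0.57 (SE 0.084, adjusted p = 0.00044), and Ppia, a prolyl isomerase, by 0.37 (SE 0.074, adjusted p = 0.0025). Ywhaz, a 14-3-3 protein, rose by 0.20 (SE 0.055, adjusted p = 0.0155), and with the GC-corrected block its change was 0.07 (adjusted p = 0.20).

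Among 22 genes of actin turnover, 5 rose and 5 fell (18% and 16.5% of all tested genes did so), with a median log2 change of 0.05. Tmsb4x, which sequesters actin monomers, fell by 0.34 (SE 0.085, adjusted p = 0.0092), Arpc4 of the Arp2/3 complex by 0.29 (SE 0.063, adjusted p = 0.0041), and Cfl2, a filament-severing cofilin, by 0.25 (SE 0.073, adjusted p = 0.019). Cap1, which recycles monomers, rose by 0.28 (SE 0.053, adjusted p = 0.0018), Actr2 of the Arp2/3 complex by 0.26 (SE 0.060, adjusted p = 0.0052), and Coro1c, a coronin, by 0.25 (SE 0.071, adjusted p = 0.018). Subunits of the Arp2/3 complex thus went in both directions, although the rise of Actr2 was 0.04 (adjusted p = 0.52) with the GC-corrected block. In that fit Arpc1b of the same complex was higher (0.21, adjusted p = 0.00018) and Arpc4 lower (-0.20, adjusted p = 0.0011).

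Of 16 genes of stress fibres and focal adhesions, 7 fell and 2 rose, beside 16.5% and 18% of all tested genes. Their median log2 change was -0.18. Csrp1, a LIM-domain protein of actin bundles, fell by 0.51 (SE 0.088, adjusted p = 0.0011), and Lpp, a LIM-domain protein of focal adhesions, by 0.50 (SE 0.085, adjusted p = 0.0010). Vasp, which promotes filament elongation, fell by 0.27 (SE 0.057, adjusted p = 0.0033), and by 0.08 (adjusted p = 0.21) with the GC-corrected block. Lima1, which stabilises filaments, rose by 0.44 (SE 0.12, adjusted p = 0.012), and Tes, a LIM-domain protein of adhesions, by 0.36 (SE 0.12, adjusted p = 0.033). With the GC-corrected block the change of Tes was 0.20 (adjusted p = 0.088). With the block alone, 10 fell and 2 rose, beside 22.7% and 23.3% of all tested genes. With the GC-corrected block 4 fell and 2 rose, of which 3 and 1 had the same call without it. In that fit 43.2% of all genes were called, so its count does not set these 16 genes apart.

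**Figure D5:**
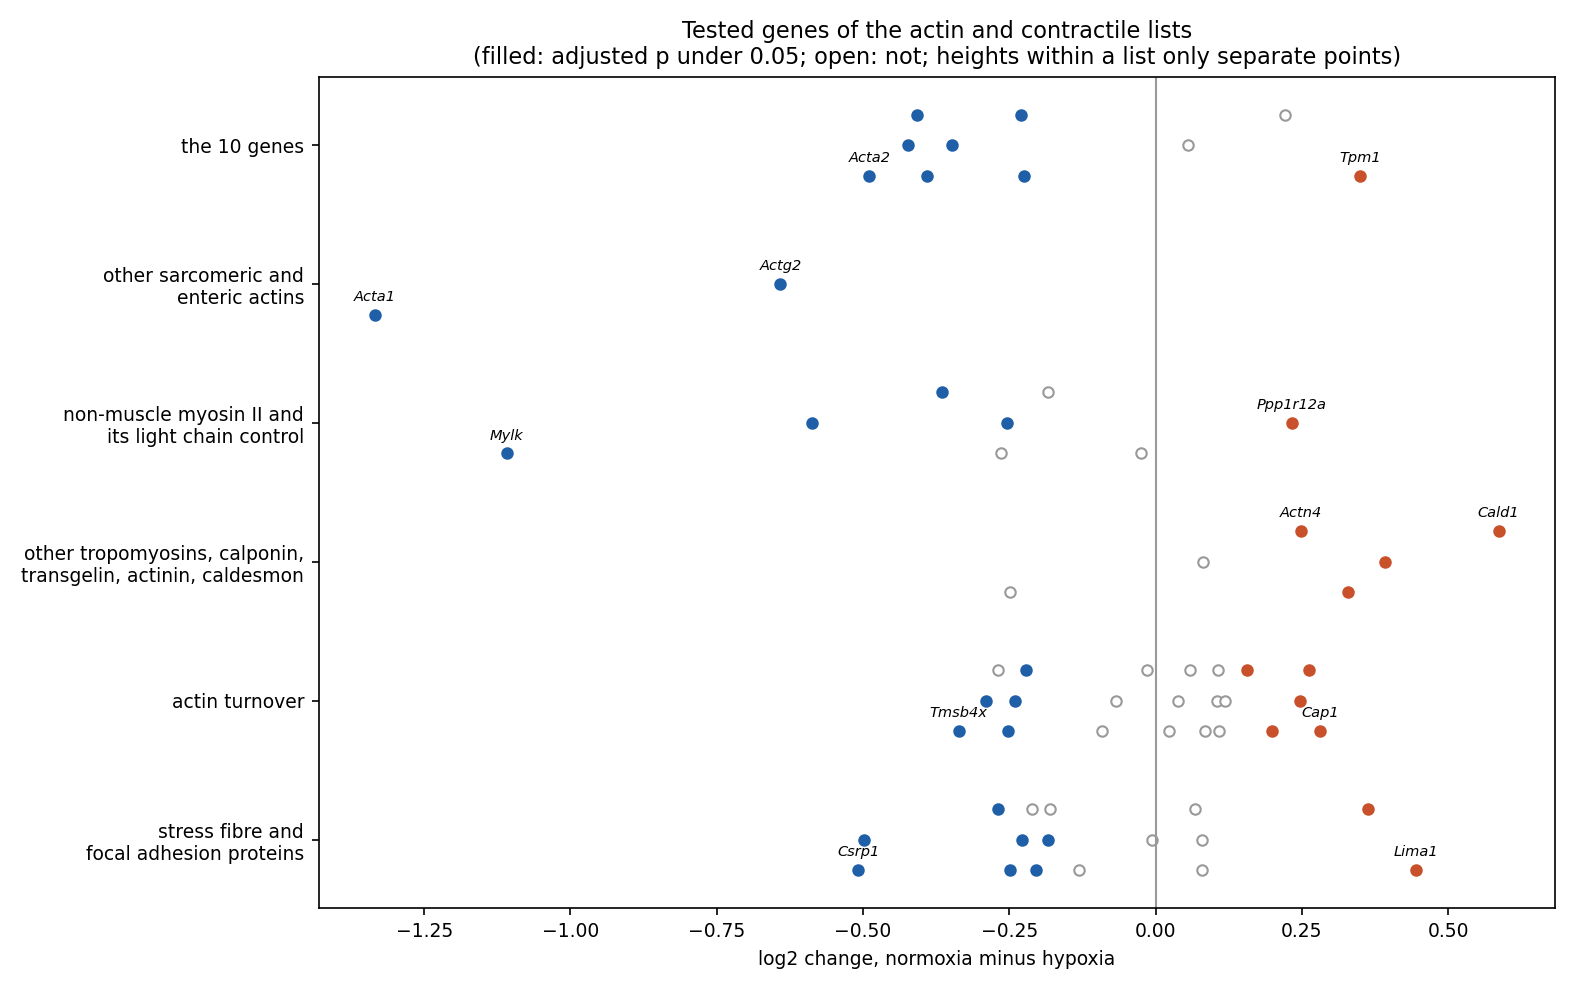
Log2 change (normoxia minus hypoxia) of the 10 genes and of each tested gene in 5 lists of actin and contractile genes, filled where the adjusted p was under 0.05 and open where not, with the called genes at the ends named. Over the 5 lists 18 genes fell and 12 rose of 54 tested, and the list of other tropomyosins, calponin, transgelin, actinin and caldesmon is the only list with rises and no fall.

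Over the 5 lists, 30 of 54 tested genes passed the test, 12 higher and 18 lower, beside 34.6% of all tested genes (18% higher and 16.5% lower), with a median log2 change of -0.047 against the 0.0049 of all tested genes. With the GC-corrected block, 13 were higher and 20 lower, beside 43.2% of all genes called in that fit. In both fits 22 genes were called in the same direction (9 higher and 13 lower). The smooth muscle markers outside the 10 genes were at low levels, together 108 to 161 CPM in hypoxia and 104 to 119 CPM in normoxia. Of 5 tested, 3 fell and none rose (with the block 3 fell and 1 rose), while Myocd, the smooth muscle coactivator of SRF, had at most 6 counts and was not tested. None of 5 tested pericyte markers passed, with 1 higher and 2 lower under the replicate block. With that block 23.3% of all tested genes were higher and 22.7% lower.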

How the data were processed

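RNA-seq measured 4 hypoxia and 4 normoxia MSC samples. The deposited table holds raw counts per gene, which the authors made with zUMIs, STAR, samtools and featureCounts on mm10 (GRCm38) with Ensembl annotation. Strand, intron and multi-mapping settings are not given in the sources used here. Symbols, exons and transcripts came from GENCODE M21 on the same build, promoters from RefSeq. Genes were kept by filterByExpr (edgeR 4.0.16, minimum count 5), scaled by TMM factors and compared as log2 CPM (prior count 3) with limma-trend (limma 3.58.1, R 4.3.3) and Benjamini-Hochberg adjustment. Log2 changes are normoxia minus hypoxia.

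Same-numbered samples deviated together (correlations across genes of 0.47, 0.28, 0.25 and 0.17), and the study divided the sorted cells between conditions, so the replicate number was also fitted as a block. The study calls the 4 samples of a group biologically independent. For the GC-corrected block, natural splines (5 df) of transcript GC content and length were removed from each sample in 14353 genes. Alternatives were edgeR's quasi-likelihood test, DESeq2 1.42.0, limma-voom, other scalings, filters and prior counts, and leaving out each sample. The count of Actg1 with its copies was added after seeing the data. At these depths 3 counts correspond to 0.119 to 0.233 CPM, counting error only.

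The 10 genes and all lists were chosen with earlier results of these data known. Named are the 10 genes and, in each list, up to 3 called rises and 3 called falls of largest size, and the 5 genes most like Acta2 and most like Actb. Marker genes are given by list counts. Ly6a, Pdgfra, Ptprc, Lyz2, Cd68, Itgam, Csf1r, Arpc1b and those listed at 0 or not tested were named after their values were seen. Ratios to Actb used counts plus 0.5. The results for 1 pathway list and 1 reference gene are not reported here.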

Additional observations from a re-analysis of the deposited data

Results flagged for a closer look

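Total counts of the hypoxia samples stood apart for hypoxia 1. The gap from its total to the nearest other hypoxia sample was 0.976 of the whole range of the group, above Dixon's critical value for 4 samples. Among 48 sets of 4 values searched, this was the only such gap, and chance alone gives about 2.4. Hypoxia 1 had 25132141 counts and was also the highest of its group for 9 of the 10 genes on the CPM scale. Without it Acta2 fell by 0.40, Actg1 by 0.34, Myl9 by 0.27, Cnn2 by 0.19 and Tagln by 0.40 on the log2 scale, and Tpm1 rose by 0.40, all past the threshold (limma-trend). The falls of Cnn1 and Actb then did not pass, and the rise of Actn1 did.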

How the results depend on the processing

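Of 367 values recomputed under alternatives, 334 were rated the same. For an effect this means that it kept its direction and side of the threshold, or moved by less than the spread between samples. Counts of called genes have no direction, and some of the 334 are counts that shifted. Genes called, for example, went from 4970 to 3838 without hypoxia 3. Acta2, Actg1, Myl9 and Tpm1 passed the test under every alternative run. The number of the 10 genes called was 8 and became 5 without a filter on low counts, 5 with scaling by total counts only, and 5 to 7 when a sample was left out (5 without normoxia 3). Of all tested genes, 34.6% were called, 17.8% without the filter, 36.1% with total counts, and 26.3% to 37.1% with a sample left out (27.8% without normoxia 3). Of the full list of 12 common reference genes, 3 to 6 were called when a sample was left out (3 without normoxia 1).

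Without the filter, under which more genes are tested, the log2 changes were -0.23 for Actb, -0.41 for Cnn1 and -0.42 for Tagln, and none of the 3 passed. Scaling by total counts moved the median change of all tested genes to 0.089. The changes of Actb (-0.14), Cnn1 (-0.32), Cnn2 (-0.14) and Tagln (-0.34) no longer passed, whereas that of Actn1 (0.31) did. With samples left out in turn, the change ran from -0.27 to -0.18 for Actb, from -0.50 to -0.25 for Cnn1, from -0.48 to -0.38 for Tagln, from 0.15 to 0.31 for Actn1 and from -0.034 to 0.17 for Tpm2, whose sign turned without normoxia 1. The difference in the ratio of Cnn2 to Actb ran from -0.033 to 0.021, with its sign turned without hypoxia 2 (0.021) and normoxia 3 (0.020). The causes were not tested.

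The replicate block changed the call of Actn1 (0.22, now past the threshold) and of no other of the 10 genes. With the block after removal of GC and length trends there were 9 calls, 3 higher and 6 lower, against 1 and 7, with Actn1 at 0.27 and Tpm2 at 0.19 past the threshold and Tagln at -0.32 not past it. Removing such trends takes away real differences that run with them. Tagln is limited by its depth of 54 to 147 counts.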

Other observations

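The genes whose log2 CPM ran most like that of Acta2 over the 8 samples, among 9395 genes with a mean of at least 3 on that scale, were Csrp1 (Pearson r = 0.99), Actg1 (0.98), Smtn (0.98), Gbf1 (0.98) and Rps6ka4 (0.97). Csrp1, a LIM-domain protein of actin bundles, and Smtn, a smooth muscle cytoskeletal protein, are both known from contractile cells. For Actb they were Mllt1 (0.99), Carm1 (0.98), Gys1 (0.97), Zbtb7b (0.97) and Cad (0.97), and none of the other 9 genes was among these 5. By the same measure Myl9 ranked 11th and Cnn2 45th beside Acta2, and Tpm1 had r = -0.58. The 8 samples hold both oxygen groups and their depth differences, so these values describe shared patterns and are given without a test.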
